A study of Sus scrofa with 11 samples.

Results

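XIRP2, FLNC and ANKRD1 are muscle genes that respond to mechanical load on the heart. They were taken as the probe sets whose only gene symbol in the platform annotation is 1 of these 3 names. This gave 1 probe set for each gene, 3 of 27558 probe sets and 3 of the 12218 genes named as the only symbol of a probe set. The genes were chosen from earlier results of these arrays, in which XIRP2 and ANKRD1 had lower values in vesicle-injected than in vehicle-injected hearts under a high fat diet. Their values in that comparison, and in every other comparison of groups that include its arrays, are therefore given as a description without a test.

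The arrays measured total RNA from the left ventricle of intact male Yorkshire pigs, in the zone made ischemic by an ameroid constrictor, a device that gradually narrows an artery, on the left circumflex coronary artery. Extracellular vesicles (EV) are membrane-bound particles that cells release. The 4 groups were HFD+EV, a high fat diet with EV injected into the heart muscle (3 arrays), HFD, the high fat diet with vehicle (2 arrays), ND+EV, a normal diet with EV (3 arrays), and ND, the normal diet with vehicle (3 arrays). Diets lasted 12 weeks and tissue was taken 5 weeks after the injection, and every heart, the ND controls included, carried the constrictor, so no group is a heart without ischemia. The labels give neither the cells the vesicles came from, nor the ages of the pigs, nor which animal each array belongs to, although the titles call the arrays of a group biological replicates.

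XIRP2 encodes a Xin-repeat protein that binds actin filaments at the intercalated disc, the junction that couples one heart muscle cell to the next. FLNC encodes filamin C, the muscle filamin, which crosslinks actin at the Z-disc and at the attachment of the contractile apparatus to the cell membrane, and which binds Xin-repeat proteins. ANKRD1 encodes cardiac ankyrin repeat protein, which binds the elastic protein titin in the sarcomere, also enters the nucleus, and is known for its induction in stretched or overloaded heart muscle. Stretch unfolds filamin, and damaged filamin is removed by a chaperone system built around BAG3.

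All values are the authors' normalized log2 signal, on which a difference of 1 is a doubling. The labels do not state the base of the logarithm, which was read as log2 from the range of the values (2.14 to 14.02), and every fold change rests on that reading. The 3 probe sets lay above the signal filter described under the methods, and their lowest values over the 11 arrays were 5.30 for XIRP2, 8.02 for FLNC and 10.55 for ANKRD1, against a limit of 3.63 for a probe set's mean. Array medians lay between 4.36 and 4.48, but the spread of signal within an array differed. Its SD was 1.59 and 1.62 in HFD, and 1.45, 1.51 and 1.47 on ND replicates 1, 2 and 3. In HFD+EV it was 1.51 and 1.58 on replicates 1 and 2, with replicate 3 between the HFD values. In ND+EV it was at most 1.54. The part of this spread in the values of the 3 genes was not tested directly. Values under cyclic loess and quantile normalization are given below. ND replicates 1 and 3 were the arrays least like the others. Over all probe sets their correlation with the remaining arrays averaged 0.946 and 0.952, against 0.965 to 0.972 for the other 9. Results that rest on these 2 arrays are given with and without them.

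All 3 genes were at their highest in the hearts of pigs on the high fat diet that received vehicle. Both HFD arrays lay above the other 9 arrays for XIRP2, for FLNC and for ANKRD1. With EV the 3 genes were lower than with vehicle under the high fat diet. Under the normal diet FLNC was lower on every EV array than on every vehicle array, XIRP2 was lower on average with overlap, and ANKRD1 had a mean 0.10 higher. Of the 20668 probe sets tested, 4.67% had both HFD arrays above the other 9, and since the genes were proposed from these arrays nothing is read from that share.

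XIRP2 had a log2 signal of 5.30, 6.48 and 7.17 on HFD+EV replicates 1, 2 and 3. On the HFD arrays it was 7.80 and 8.72. On the ND+EV arrays it was 6.30, 5.37 and 5.77, and on the ND arrays 7.08, 7.11 and 6.14. HFD+EV replicate 1 had the lowest value of all 11 arrays and HFD replicate 2 the highest, a range of 3.42 on the log2 scale, or 10.7-fold. The means were 6.32 ± 0.95 in HFD+EV (SD, n = 3), 8.26 ± 0.65 in HFD (n = 2), 5.81 ± 0.47 in ND+EV (n = 3) and 6.78 ± 0.55 in ND (n = 3). Ordered by mean, from low to high, the groups ran ND+EV, HFD+EV, ND and HFD. Neighbours in that order overlapped except for HFD and ND.

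FLNC had a log2 signal of 8.02, 8.76 and 8.97 on HFD+EV replicates 1, 2 and 3. On the HFD arrays it was 9.30 and 9.85. The ND+EV arrays were close together at 8.28, 8.24 and 8.44, below the ND arrays at 8.76, 9.0 and 9.14. The means were 8.58 ± 0.50 in HFD+EV (SD, n = 3), 9.58 ± 0.39 in HFD (n = 2), 8.32 ± 0.10 in ND+EV (n = 3) and 8.96 ± 0.19 in ND (n = 3). The order of the group means was that of XIRP2, and again HFD and ND were the neighbours that did not overlap.

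ANKRD1 had a log2 signal of 10.66, 10.94 and 11.44 on HFD+EV replicates 1, 2 and 3. The HFD arrays nearly coincided at 11.70 and 11.64. On the ND+EV arrays it was 10.64, 11.09 and 10.98, and on the ND arrays 10.55, 11.12 and 10.73. The means were 11.01 ± 0.40 in HFD+EV (SD, n = 3), 11.67 ± 0.04 in HFD (n = 2), 10.90 ± 0.24 in ND+EV (n = 3) and 10.80 ± 0.29 in ND (n = 3). The 3 lower groups overlapped, and their order by mean (ND, ND+EV, HFD+EV) is within their spread. HFD lay above HFD+EV, the next group, without overlap.

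**Figure D1:**
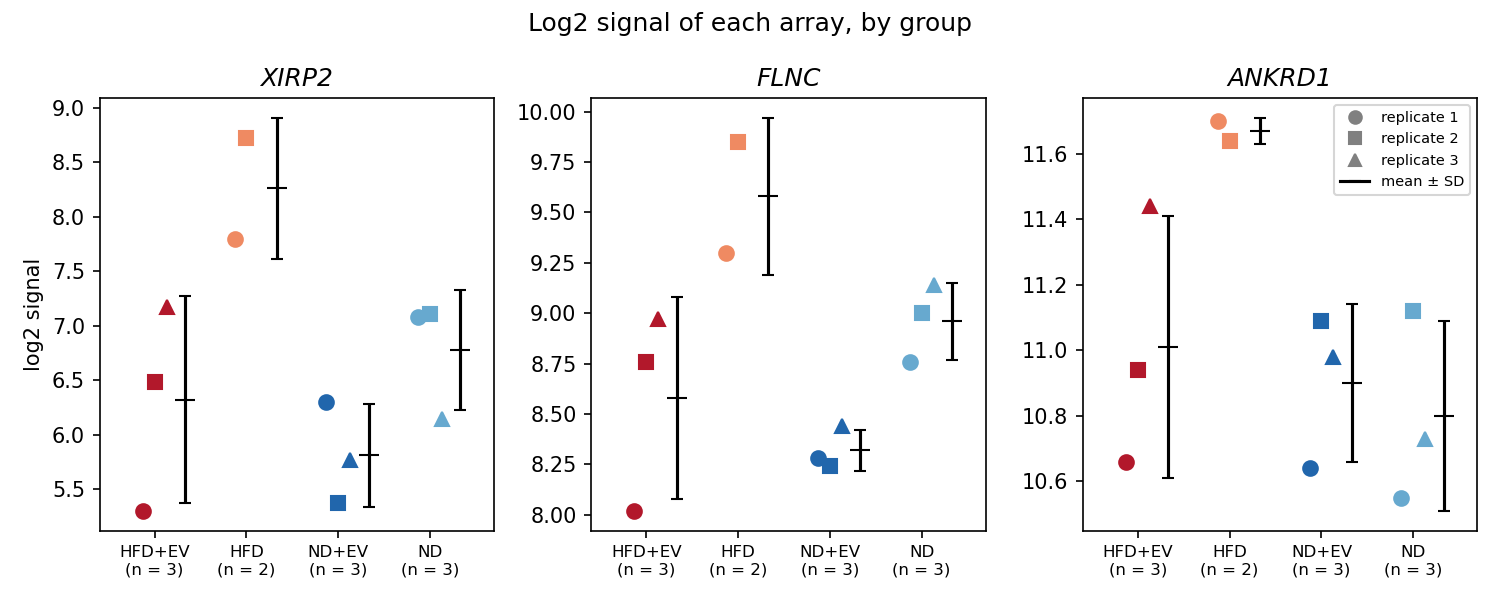
Log2 signal of XIRP2, FLNC and ANKRD1 on each of the 11 arrays, with the groups along the x axis, 1 symbol per array (its shape gives the replicate number) and the mean ± SD in black. For each gene both HFD arrays lie above the other 9, and for FLNC the 3 ND+EV arrays (8.24 to 8.44) lie below the 3 ND arrays (8.76 to 9.14). Each y axis has its own range and does not start at 0.

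The spread within groups was largest for XIRP2. Its within-group SD was 0.68, against 0.33 for FLNC and 0.29 for ANKRD1 and a median of 0.21 over the probe sets tested. Differences between group means held 70% of the variance of XIRP2 over the arrays, 73.9% of that of FLNC and 63.2% of that of ANKRD1. Within HFD+EV all 3 genes were lowest on replicate 1 and highest on replicate 3. There XIRP2 deviated from its group mean by -1.02 and 0.86, FLNC by -0.57 and 0.39, and ANKRD1 by -0.36 and 0.43.

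The question put by the first comparison is what EV did under the normal diet. The fold changes of this first comparison use no array of the comparison named above for XIRP2 and ANKRD1. For FLNC no such comparison is known. The spread behind the SE, intervals and p below was estimated over all arrays, those of HFD and HFD+EV included. In a fit of only the ND+EV and ND arrays the SE was 0.14 for FLNC, 0.33 for XIRP2 and 0.19 for ANKRD1. None of the 3 passed there either (limma adjusted p 0.735, 0.735 and 0.918). The genes were chosen with earlier results of these arrays known, so the p values below may not be free of that choice. FLNC was lower in ND+EV than in ND, with a log2 fold change of -0.64 ± 0.24 (SE, 95% interval -1.17 to -0.12), which is 1.56-fold lower, and XIRP2 had a log2 fold change of -0.96 ± 0.46 (SE, interval -1.99 to 0.06). ANKRD1 had a log2 fold change of 0.10 ± 0.21 (SE, interval -0.37 to 0.58). None of the 3 passed the test across all probe sets, with limma adjusted p of 0.548 for FLNC, 0.609 for XIRP2 and 0.912 for ANKRD1 (unadjusted p 0.0199, 0.0628 and 0.641). Of the 20668 probe sets 0% passed with limma, although 1758 reached an unadjusted p below 0.05. For 1 of the 3 genes, FLNC, all ND+EV arrays were lower than all ND arrays, as they were at 5.31% of all probe sets, and for 0 of the 3 all were higher, as at 6.32%.

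Without ND replicates 1 and 3 the comparison rests on 1 ND array, which is assumed to vary like the other groups. FLNC was then -0.68 and XIRP2 -1.29, while ANKRD1 turned to -0.22. ANKRD1 also changed sign without ND replicate 1 alone (-0.02) and under cyclic loess normalization (-0.25), so these arrays give it no direction.

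Under the high fat diet XIRP2 was 3.84-fold lower in HFD+EV than in HFD, with a log2 fold change of -1.94 ± 0.52 (SE). FLNC was 1.99-fold lower, at -0.99 ± 0.26 (SE), and ANKRD1 1.58-fold lower, at -0.66 ± 0.24 (SE). The 3 HFD+EV arrays lay below both HFD arrays for each of the 3 genes, where 11% of all probe sets were lower and 12.2% higher without overlap and 0% passed limma. Since the groups did not overlap, leaving out 1 array could change only the size of these values and not their direction. XIRP2 ranged from -2.40 without HFD replicate 1 to -1.43 without HFD+EV replicate 1, FLNC from -1.26 to -0.71 without the same 2 arrays, and ANKRD1 from -0.87 without HFD+EV replicate 3 to -0.48 without HFD+EV replicate 1.

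The diet was compared in vehicle-injected hearts next. XIRP2 was 2.79-fold higher in HFD than in ND (log2 fold change 1.48 ± 0.52, SE), ANKRD1 1.82-fold higher (0.87 ± 0.24) and FLNC 1.53-fold higher (0.61 ± 0.26). For all 3 the HFD arrays lay above the ND arrays, as they did at 19.4% of all probe sets, while 19.7% were lower without overlap. With limma 0.513% of probe sets were higher and 0.223% lower at an adjusted p below the threshold of 0.05. FLNC was 0.34 without HFD replicate 2 and 0.18 under cyclic loess, and ANKRD1 was 0.38 under cyclic loess and 0.55 without ND replicates 1 and 3.

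In EV-injected hearts the diets were closer. XIRP2 differed by 0.50 ± 0.46 (SE) between HFD+EV and ND+EV, FLNC by 0.26 ± 0.24 and ANKRD1 by 0.11 ± 0.21. The groups did not overlap for 0 of the 3 genes, against 7.58% of all probe sets on the higher side and 6.93% on the lower, and 0% passed limma. HFD+EV replicate 1 and replicate 3 set much of these values. XIRP2 was 1.01 without replicate 1 and 0.07 without replicate 3, FLNC 0.55 and 0.07, and ANKRD1 0.29 and -0.11. Without ND+EV replicate 1 ANKRD1 was -0.02, and without ND+EV replicate 2 it was 0.20 and XIRP2 0.28.

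The EV effect under the high fat diet minus that under the normal diet was -0.98 ± 0.69 (SE) for XIRP2, -0.35 ± 0.35 for FLNC and -0.76 ± 0.32 for ANKRD1. For XIRP2 and FLNC the EV arrays averaged lower than vehicle under both diets. No probe set of the table passed limma (0%). The value for XIRP2 was -0.47 without HFD+EV replicate 1, -0.52 without HFD replicate 2 and -1.44 without HFD replicate 1. FLNC gave -0.06, -0.07 and -0.62 without these arrays, -0.54 without HFD+EV replicate 3 and -0.01 under cyclic loess. For ANKRD1 it was -0.31 under cyclic loess and -0.44 without ND replicates 1 and 3. The 5 comparisons share groups, so their values are not independent of one another.

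**Figure D2:**
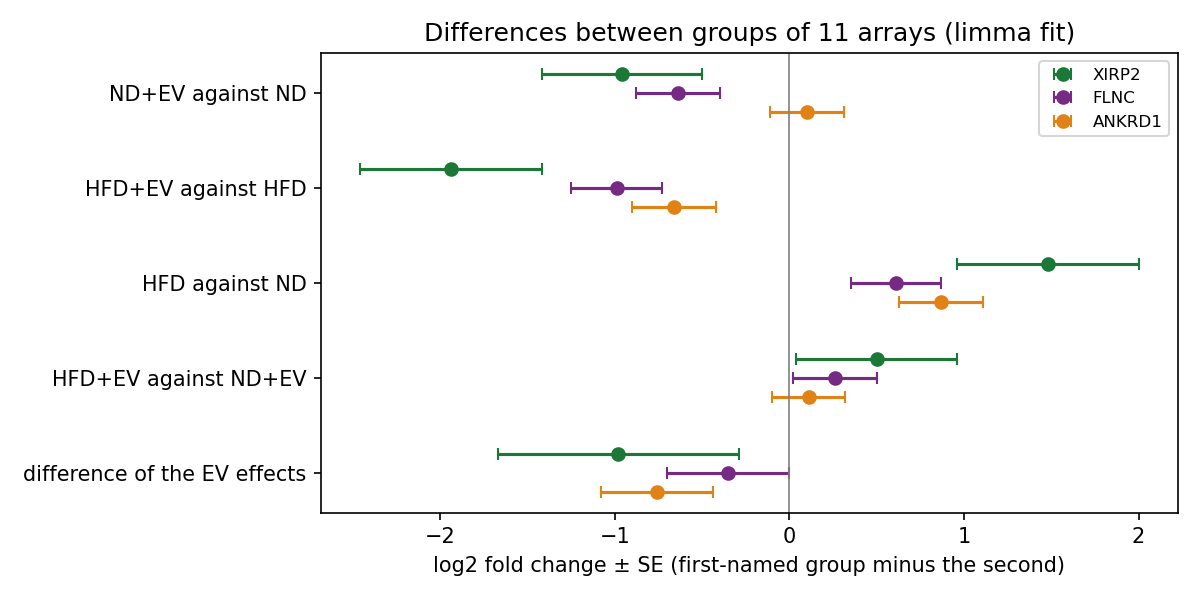
Log2 fold changes of XIRP2, FLNC and ANKRD1 (x axis) in the 5 comparisons (y axis), as points with bars of 1 SE from the limma fit of 11 arrays. All 3 genes lie left of 0 in HFD+EV against HFD (-1.94, -0.99 and -0.66) and right of 0 in HFD against ND (1.48, 0.61 and 0.87), while ANKRD1 lies at 0.10 in ND+EV against ND.

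In bulk tissue, fewer cells of a type and less RNA per cell cannot be told apart. Cardiomyocyte markers, of which 7 of 10 were measured, had a mean log2 level of 10.85 to 11.06 in HFD+EV, 10.85 to 11.11 in HFD, 10.79 to 10.93 in ND+EV and 10.65 to 10.86 in ND. These are levels of a heart muscle sample, and that it is ventricle rests on the labels. The median log2 fold change of these markers was -0.04 in HFD+EV against HFD and 0.18 in ND+EV against ND. In HFD against ND it was 0.24, with 4 markers higher and 3 lower. Of 8 fast skeletal muscle markers 3 were measured above the filter, with a mean level of 4.93 to 5.13 in HFD+EV, 5.01 to 5.05 in HFD, 5.03 to 5.22 in ND+EV and 4.99 to 5.27 in ND, and MYH1, a fast skeletal myosin heavy chain, averaged 3.50, below the filter. No value in the table is 0, so no marker was at 0.

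The mean level of atrial muscle markers was, like that of the 3 genes, lower on every HFD+EV array than on both HFD arrays, with 0 of the markers past the test. Single markers did not all separate in this way. NPPA was 7.40 on HFD+EV replicate 3 and 7.15 on HFD replicate 1, and SLN 3.94 on HFD+EV replicate 1 and 3.77 on HFD replicate 1. MYL7 did separate. SLN, MYL4 and KCNA5 averaged 3.94, 4.19 and 4.13 over the arrays, near the filter limit of 3.63. The mean log2 level of the 5 measured, all of the list, was 5.12 to 5.22 in HFD+EV, 5.71 to 6.58 in HFD, 5.31 to 5.63 in ND+EV and 4.79 to 5.82 in ND. SLN, which encodes the calcium pump regulator sarcolipin of atrial muscle, stood at 6.73 on HFD replicate 2 and between 3.18 and 3.94 on the other 10 arrays. HFD replicate 2 also had the highest XIRP2 and FLNC, and without it XIRP2 was -1.48, FLNC -0.72 and ANKRD1 -0.69 in HFD+EV against HFD. MYL7, the atrial myosin light chain, did not follow SLN: it was 7.40, 7.68 and 6.88 in HFD+EV, 9.18 and 8.44 in HFD, 9.79, 8.98 and 9.63 in ND+EV and 6.35, 8.13 and 9.0 in ND. The part of atrial tissue in the values of the 3 genes was not tested.

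The mean levels of smooth muscle and of fibroblast markers overlapped between HFD+EV and HFD. The 5 smooth muscle and pericyte markers measured had a mean log2 level of 6.27 to 6.80 in HFD+EV, 6.60 to 7.09 in HFD, 6.10 to 6.35 in ND+EV and 5.90 to 6.74 in ND. The 6 fibroblast markers lay at 8.09 to 8.78, 8.38 to 8.99, 8.29 to 8.33 and 7.47 to 8.52 in the same 4 groups. Of the fibroblast markers 6 of 6 were lower in HFD+EV against HFD (median log2 fold change -0.19). In ND+EV against ND 6 of 6 were higher (median 0.28). Of the smooth muscle and pericyte markers 4 were lower and 1 higher in both comparisons (medians -0.34 and -0.29). The part of these markers in the results was not tested. Of the cell type markers 0 passed limma in any of the 5 comparisons.

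XIRP2 and FLNC followed each other across the arrays more closely than either followed ANKRD1. Over the 11 arrays, whose values share the group differences described above, Pearson's r was 0.90 and Spearman's rho 0.83 for XIRP2 and FLNC. After the group means were subtracted, r was 0.67. For XIRP2 and ANKRD1 r was 0.68, rho 0.61 and r within groups 0.39, and for FLNC and ANKRD1 r was 0.68, rho 0.61 and r within groups 0.59. The 2 arrays farthest from the median were both HFD arrays for XIRP2, and HFD replicate 2 and HFD+EV replicate 1 for FLNC. Without these 2 of the first-named gene, which narrows its range, r was 0.75 for XIRP2 and FLNC, 0.26 for XIRP2 and ANKRD1 and 0.47 for FLNC and ANKRD1. Without ND replicates 1 and 3 instead, r was 0.97, 0.81 and 0.87 for the same pairs, so the value for XIRP2 and ANKRD1 depends on which arrays are left out. These are descriptions of 3 genes chosen with their values known.

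**Figure D3:**
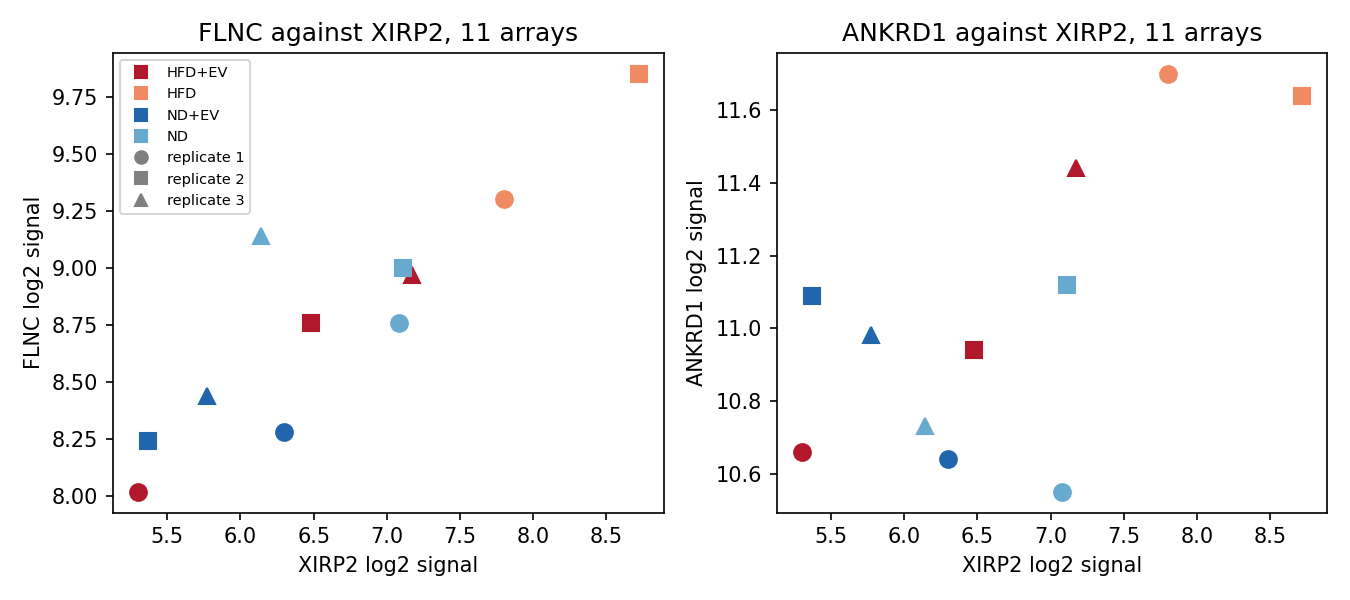
FLNC (left) and ANKRD1 (right) against XIRP2, all in log2 signal, for the 11 arrays, with colour for the group and shape for the replicate number. The HFD arrays lie at the upper right of both panels, HFD+EV replicate 1 at the lower left, and ND replicate 1 combines an XIRP2 signal of 7.08 with the lowest ANKRD1 signal, 10.55.

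Among 9737 other named genes, FLNC ranked 8th by r with XIRP2, and XIRP2 ranked 10th with FLNC. ANKRD1 ranked 343rd with XIRP2 and 350th with FLNC, while by r with ANKRD1 itself XIRP2 ranked 1087th and FLNC 1069th. Leaving out the 3 genes themselves, those most like XIRP2 over the 11 arrays were SERPINH1, the collagen chaperone of the endoplasmic reticulum (r = 0.929), the phosphatase gene DUSP26 (0.929), TRAM2 (0.924), the tubulin gene TUBB4B (0.919) and the membrane-bound transcription factor gene CREB3 (0.917). Those most like FLNC were DUSP26 (0.971), XIRP1, the paralogue of XIRP2 (0.936), the lipid kinase gene PI4KB (0.923), RASSF2 (0.919) and CACNB3, which encodes a subunit of calcium channels (0.917). Those most like ANKRD1 were SLC35F5 (0.982), BTBD1 (0.971), the ubiquitin conjugating enzyme gene UBE2J1 (0.95), the Golgi SNARE gene GOSR2 (0.946) and SRP68 of the signal recognition particle (0.945).

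After the group means were subtracted r was 0.79 to 0.92 for the 5 genes of XIRP2, 0.80 to 0.93 for those of FLNC and 0.86 to 0.96 for those of ANKRD1. DUSP26 was the gene named for both XIRP2 and FLNC, and 0 of the genes named for ANKRD1 were named for the others. Without ND replicates 1 and 3, 3 of the 5 genes of each stayed among its first 5, and all 5 among its first 50.

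The lists of related genes below hold 63 measured genes, taken by function with earlier results of these arrays known. In HFD against ND 1 of them passed limma on the higher side and 0 on the lower, and in the other 4 comparisons 0 passed in either direction. The background share of all probe sets that passed in either direction was 0.735% in HFD against ND and 0% in the others.

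XIRP1, the other Xin-repeat gene of heart muscle, was lower on average with EV under both diets. Its log2 signal was 6.23, 7.04 and 7.32 in HFD+EV and 7.31 and 8.10 in HFD, a log2 fold change of -0.84 ± 0.36 (SE; limma adjusted p = 0.895). In ND+EV it was 6.42, 6.78 and 6.52, and in ND 6.65, 7.34 and 7.65, a log2 fold change of -0.64 ± 0.33 (SE; limma adjusted p = 0.627). The groups overlapped in both comparisons, under the high fat diet by HFD+EV replicate 3 and HFD replicate 1, and under the normal diet by ND+EV replicate 2 and ND replicate 1.

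Genes of the intercalated disc and adherens junction, of which 10 of 13 were measured, were lower in HFD+EV than in HFD for all 10 (median log2 fold change -0.27, 0 passed), against a median of 0 over all probe sets tested. In ND+EV against ND 6 were higher and 4 lower (median 0.15, 0 passed). NRAP, an actin-anchoring protein that like XIRP1 binds at the ends of myofibrils, had the largest change there, -0.76 ± 0.29 (SE; limma adjusted p = 0.57). CTNNA1, which links cadherins to actin, was -0.58 ± 0.26 (SE) in HFD+EV against HFD (limma adjusted p = 0.896). In HFD against ND 9 of the 10 were higher (median 0.66, 0 passed), against a median of -0.02 over all probe sets tested. That rise was not particular to this list. The filamin list below had a median of 0.61 there with 11 of 11 higher, and the fibroblast markers 0.67 with 6 of 6 higher. The YAP/TEAD and SRF/MRTF list stood at 0.01, with 5 higher and 4 lower. The fall in HFD+EV against HFD was not particular to the intercalated disc list either. In that comparison 9 of 11 genes of the filamin list, 10 of 11 of the Z-disc list and 6 of 6 fibroblast markers were lower. Their medians were -0.41, -0.29 and -0.19. Of the cardiomyocyte markers 4 were lower and 3 higher (median -0.04).

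The filamin list held chaperones and partners of FLNC, with 11 of 16 measured. The relative FLNA was not analysed here. In HFD+EV against HFD 9 were lower and 2 higher (median -0.41, 0 passed), and in ND+EV against ND 6 were higher and 5 lower (median 0.09, 0 passed). SYNPO2L, a Z-disc protein, had a log2 signal of 6.95, 7.61 and 7.98 in HFD+EV and 8.38 and 8.45 in HFD, with a log2 fold change of -0.90 ± 0.28 (SE; limma adjusted p = 0.716). The small heat shock protein CRYAB followed at -0.71 ± 0.29 (SE; limma adjusted p = 0.895). BAG3, the co-chaperone that handles unfolded filamin, was -0.31 ± 0.17 (SE) in HFD+EV against HFD and -0.20 ± 0.15 in ND+EV against ND (limma adjusted p = 0.905 and 0.711).

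SQSTM1, the autophagy receptor that takes up ubiquitinated proteins, was the gene of the lists that passed, and it rose in HFD against ND. Its log2 signal was 7.36 and 7.72 in HFD against 6.03, 6.50 and 6.32 in ND, a log2 fold change of 1.26 ± 0.19 (SE; limma adjusted p = 0.0471). The call held in 4 of 20 other settings, with values from 1.0 to 1.44 and adjusted p from 0.0213 to 0.285. In ND+EV against ND the largest changes of the list were those of the constitutive chaperone HSPA8 (0.47 ± 0.20, SE) and SQSTM1 (0.40 ± 0.17), with limma adjusted p of 0.574 and 0.58.

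In the list of Z-disc proteins and stretch sensors around ANKRD1, 11 of 17 genes were measured. The relatives ANKRD2 and ANKRD23, the titin gene TTN and the partner MYPN were not analysed here, nor was the small heat shock gene HSPB7. In HFD+EV against HFD 10 were lower and 1 higher (median -0.29, 0 passed), and in ND+EV against ND 8 were higher and 3 lower (median 0.08, 0 passed). CSRP3, the muscle LIM protein, had a log2 signal of 10.81, 10.19 and 12.01 in HFD+EV and 12.20 and 11.16 in HFD, which overlapped (log2 fold change -0.67 ± 0.49, SE; limma adjusted p = 0.925). PDLIM3, a Z-disc adaptor of alpha-actinin, was -0.76 ± 0.38 (SE) and the LIM protein FHL1 -0.66 ± 0.23 in ND+EV against ND (limma adjusted p = 0.627 and 0.548). PDLIM3 was -0.40 ± 0.43 in HFD+EV against HFD (limma adjusted p = 0.97).

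Costamere and integrin genes tie the Z-disc to the membrane. Of 9 measured, 6 were lower and 3 higher both in HFD+EV against HFD (median -0.15, 0 passed) and in ND+EV against ND (median -0.11, 0 passed). The largest were the talin gene TLN2 (-0.32 ± 0.20, SE) and the dystrophin gene DMD (0.28 ± 0.35) in HFD+EV against HFD, and LIMS1 (-0.24 ± 0.22) and the laminin gene LAMA2 (0.17 ± 0.36) in ND+EV against ND. Their limma adjusted p were 0.915, 0.977, 0.773 and 0.91.

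Regulators of load-responsive transcription were looked at next. Of 9 measured genes of the YAP/TEAD and SRF/MRTF pathways 7 were lower and 2 higher in HFD+EV against HFD (median -0.09, 0 passed), and 6 were lower and 3 higher in ND+EV against ND (median -0.07, 0 passed). CYR61, a secreted target of YAP, was 0.32 ± 0.15 (SE) under the high fat diet and -0.38 ± 0.14 under the normal diet (limma adjusted p = 0.904 and 0.548). The transcription factor gene SRF was -0.31 ± 0.24 under the high fat diet, and CTGF, also a YAP target, was -0.48 ± 0.27 under the normal diet (limma adjusted p = 0.929 and 0.632). Of 6 measured transcription factor genes described for XIRP2 or ANKRD1, MEF2C was -0.27 ± 0.24 and HAND2 -0.25 ± 0.35 in HFD+EV against HFD. MEF2A was 0.47 ± 0.23 and NKX2-5 -0.26 ± 0.14 in ND+EV against ND. Their medians were -0.17 and 0.01 in the 2 comparisons, and 0 passed.

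Of the load-responsive fetal genes 7 of 9 were measured, and the natriuretic peptide genes NPPA and NPPB varied most. NPPB had a log2 signal of 5.92, 5.40 and 8.53 in HFD+EV, 7.69 and 9.68 in HFD, 5.31, 7.67 and 8.92 in ND+EV and 5.78, 7.78 and 9.25 in ND. Every group held both low and high arrays except HFD, and the log2 fold change in HFD+EV against HFD was -2.07 ± 1.27 (SE; limma adjusted p = 0.915). NPPA was -1.38 ± 0.65 there (limma adjusted p = 0.904), and -0.77 ± 0.58 in ND+EV against ND, where NPPB was -0.30 ± 1.14 (limma adjusted p = 0.714 and 0.957). ACTA1, the skeletal alpha-actin of the fetal program, was -0.40 ± 0.21 (SE) in HFD+EV against HFD and 0.27 ± 0.19 in ND+EV against ND (limma adjusted p = 0.905 and 0.691). In HFD+EV against HFD 6 of the 7 genes were lower and 1 higher (median -0.40, 0 passed), and in ND+EV against ND 4 were lower and 3 higher (median -0.02, 0 passed).

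**Figure D4:**
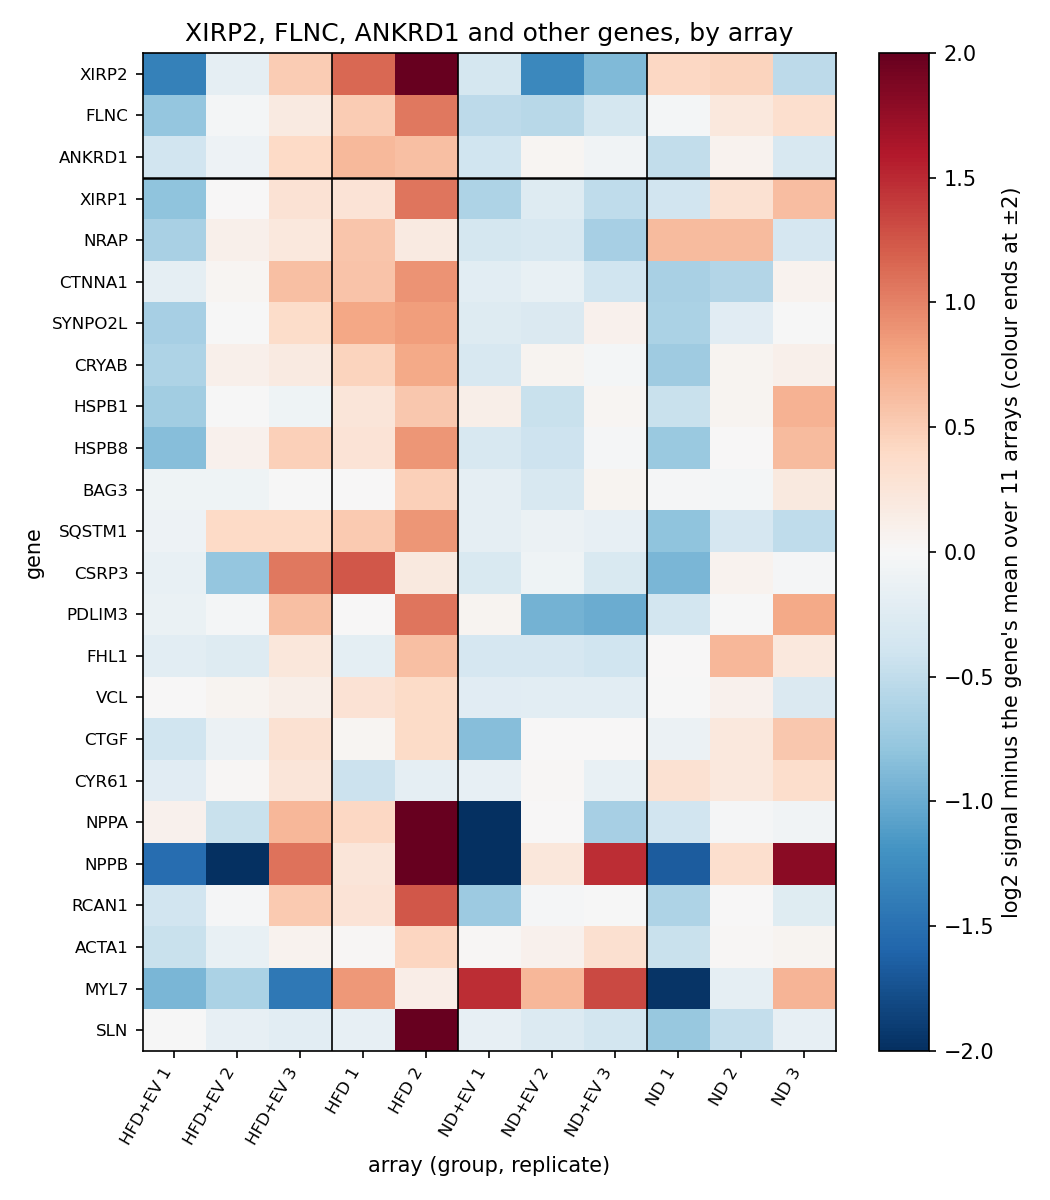
Log2 signal minus each gene's mean over the 11 arrays, as colour (red higher, blue lower, ends at ±2), for XIRP2, FLNC and ANKRD1 above the line and 21 genes of the lists and the atrial markers below it, with arrays along the x axis by group. HFD replicate 2 is red for XIRP2, NPPA, NPPB and SLN together, HFD+EV replicate 1 is below the mean for 22 of the 24 genes, and NPPB changes colour within each group except HFD.

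**Figure D5:**
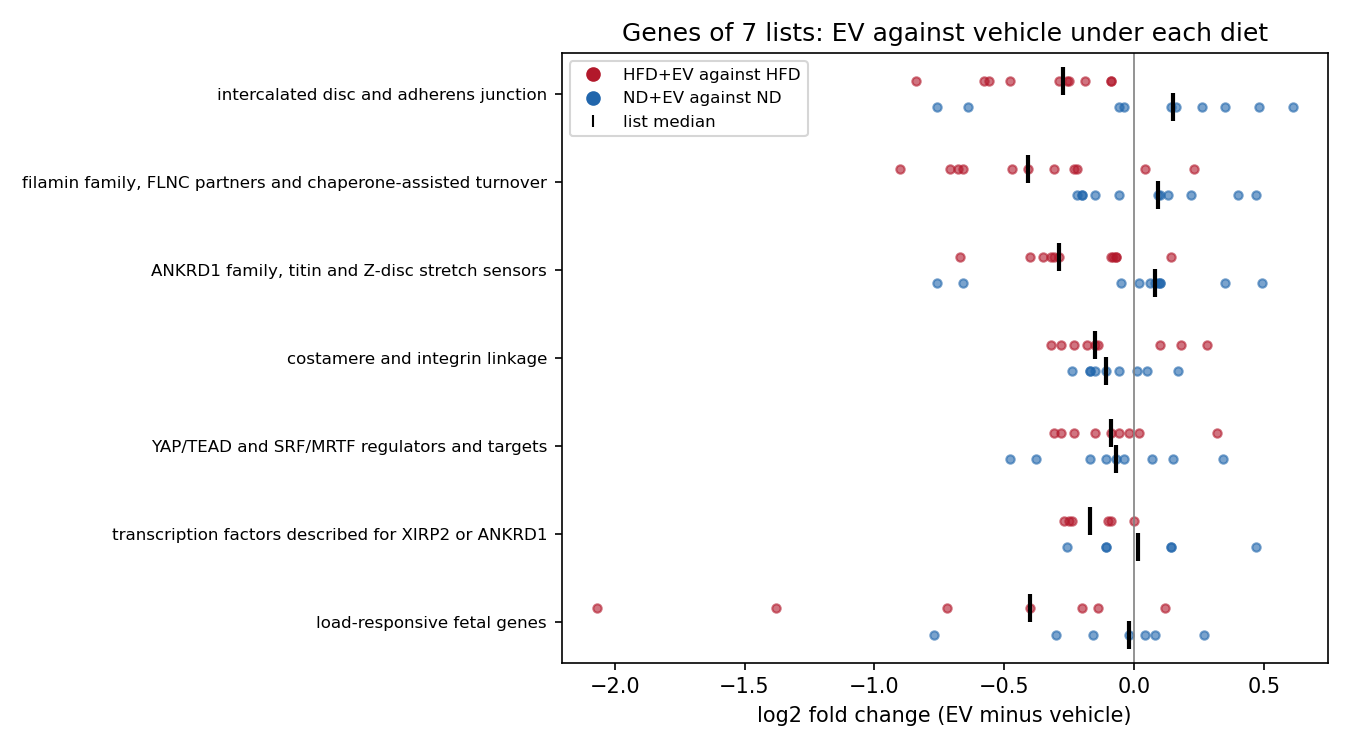
Log2 fold change of each measured gene of the 7 lists (x axis, 1 point per gene; black bars are list medians), with EV against vehicle under the high fat diet in red and under the normal diet in blue. Under the high fat diet the medians run from -0.41 to -0.09, and under the normal diet from -0.11 to 0.15.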

How the data were processed

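For 11 Affymetrix arrays, each labelled from 50 ng of total RNA per the labels' protocols, the authors deposited values already normalized and on a scale read here as log2 from their range. The software was Transcriptome Analysis Console, per the submitters' processing notes. How signals were summarised and normalized is not stated there, and annotation version and build are also not given in the sources used here. No coordinates or sequences are therefore printed. The number of arrays limits the precision. Groups came from the titles.

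A filter on mean signal removed the dimmest 25% of probe sets and left 20668, and 1 mean per group was fitted over all arrays with limma 3.58.1 in R 4.3.3 (lmFit, eBayes, 7 residual and 3.62 prior degrees of freedom), with two-sided p adjusted by Benjamini-Hochberg over every probe set kept. The functions were tested on simulated data. A current gene table held the gene ID of 12841 of the 13157 probe sets that have a single symbol. A list gene is represented by its probe set with the highest mean. Probe sets of WWTR1 disagreed in direction in ND+EV against ND, those of the marker ACTC1 there and in HFD against ND, and those of KDR in all 3 of ND+EV against ND, HFD+EV against HFD and HFD against ND.

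The 20 alternatives covered the filter, the normalization, the variance model, array weights, a replicate block and arrays left out. Named genes were the 3 genes, the 5 most correlated with each, list members that passed and, in both EV comparisons, the 2 list members with the largest change, with a fixed set of relatives and partners. Markers and arrays were named where their values moved with a result. The genes, lists and rules were chosen with earlier results of these data known.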

Additional observations from a re-analysis of the deposited data

Results flagged for a closer look

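SQSTM1, the autophagy receptor of the filamin list, was lower on every HFD+EV array than on both HFD arrays (log2 fold change -0.47) and higher on every ND+EV array than on every ND array (0.40), so that EV and vehicle arrays separated in opposite directions under the 2 diets. Of all probe sets tested, 0.871% separated in these directions and 0.803% in the opposite ones, so SQSTM1 is 1 of 180 with its pattern. The difference of the EV effects was -0.87, with a limma adjusted p of 0.572, which did not pass.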

How the results depend on the processing

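XIRP2, FLNC and ANKRD1 kept the direction reported in HFD+EV against HFD and in HFD against ND in all 20 alternatives. The groups did not overlap there, so only the normalizations and the replicate block could have reversed it. The other settings could not, and their agreement is no support. XIRP2 and FLNC also kept their direction in ND+EV against ND, where the same limit holds for FLNC. None of the 3 passed there in any setting with more than 1 ND array (limma adjusted p 0.35 to 0.997). ANKRD1 in ND+EV against ND reversed under cyclic loess (-0.25), with array weights (-0.01) and without both ND replicates 1 and 3 (-0.22). With 1 array left out in turn, the range in ND+EV against ND was -1.28 to -0.74 for XIRP2, -0.75 to -0.56 for FLNC and -0.02 to 0.26 for ANKRD1. Cyclic loess gave 0.18 for FLNC and 0.38 for ANKRD1 in HFD against ND, and -0.01 and -0.31 for the difference of the EV effects. Without both ND replicates 1 and 3 ANKRD1 was 0.55 and -0.44 in these comparisons. Cyclic loess moved the mean of FLNC in ND to 9.18 and that of ANKRD1 in HFD to 11.46, and quantile normalization the last to 11.61. The cause was not tested.

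The 152 probe sets that passed in HFD against ND became 0 with no filter, cyclic loess, quantile normalization, a trended robust variance, array weights, without both ND replicates 1 and 3 or with only the groups compared, and ranged from 0 to 1353 with 1 array left out. In HFD+EV against ND+EV 0 became 10 with array weights and 2 without both ND replicates 1 and 3, and 0 to 2 with 1 array left out. With 1 array left out the counts were 0 to 2 in ND+EV against ND, 0 to 1 in HFD+EV against HFD and 0 to 1 for the difference of the EV effects. As reported, limma gave 0 calls and 1758 unadjusted p below 0.05 in ND+EV against ND. It gave 0 calls and 1146 such p in HFD+EV against HFD and 0 calls and 1740 such p for the difference of the EV effects. Between the diets it gave 152 calls and 4963 such p with vehicle, and 0 calls and 1522 such p with EV.

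Same-numbered arrays of different groups correlated at -0.10 to 0.33 in their deviations from the group means, over 0.1 in 4 of 15 pairs (mean 0.087). Differently numbered arrays correlated at -0.34 to 0.19, over 0.1 in 3 of 30 pairs (mean -0.044). Deviations within a group sum to 0, which ties these means to each other, so they are not separate observations. Same-numbered arrays were somewhat more alike on average. The labels do not say that the numbers pair samples, so they were not paired in the main fit, and a replicate block was run as an alternative. With the replicate block 938 probe sets passed in HFD against ND, and 0 in the other 4 comparisons; FLNC in ND+EV against ND had an adjusted p of 0.35 and XIRP2 0.536. Of 693 alternative values of list medians 39 moved by more than the spread between replicates, and of 3050 values of single genes beside the 3, 42 did. The call of SQSTM1 in HFD against ND ended in 16 of 20 settings.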
